A study of Homo sapiens with 6 samples.

Results

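The kinesins, the motor proteins that walk along microtubules or take them apart, were taken as every protein-coding gene of the count table whose symbol is KIF followed by a number and at most 1 letter from A to C, or KIFC1, KIFC2 or KIFC3. This rule gave 42 of 58735 genes, and of 19951 protein-coding genes. RNA of UE7T-9, a human mesenchymal stem cell line from bone marrow, was measured in 3 control libraries of the wild-type line and in 3 libraries of UE7T-9 cells in which SRRM4, a splicing factor best known from neurons, was targeted by lentiviral CRISPR v2 (SRRM4 KO). The KO line was grown from a dilution to 1 cell per well and is therefore 1 clone, and the study describes its loss of SRRM4 protein as incomplete. Whether the control cells carried an empty vector is not given in the sources used here, so effects of transduction, selection and cloning cannot be told apart from that of SRRM4. SRRM4 had 0 counts in all 6 libraries, so the counts do not check the knockout. Library totals ran from 21496117 to 23868323 counts, and 0 counts allow up to 3 counts, or 0.123 to 0.139 CPM (counts scaled to equal library size), in a library. This limit covers counting error only. Control replicate 1 was unlike the rest of its group, since 22403 genes had a count in it and 20613 and 20674 in the others. Kinesins whose test outcome or call changed without it are given both ways, as are some others. Values given once can have moved too, as that of KIF14 did from 1.15 to 1.31 on the log2 scale. The labels do not say whether the libraries of a group are separate cultures, so that the tests measure the spread between these libraries, which may be technical. The mesenchymal markers NT5E and VIM, which encode CD73 and vimentin, lay above all control libraries in KO cells (log2 fold changes 0.52 and 0.36), whereas THY1, which encodes CD90, fell by 2.43 on the log2 scale, COL1A2 by 1.70, COL1A1 by 1.23 and ENG by 0.34. Each of the 6 passed an adjusted p of 0.05, where 20.7% of all tested genes passed it higher and 20.9% lower. Of the blood cell markers, PTPRC was at 2 counts or fewer in each library, and CD34 and CD14 did not pass the test.

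Kinesins share a motor domain, which in most of them uses ATP to act on microtubules, and they are told apart by what the rest of the protein binds. Mitotic kinesins build the spindle, move and align chromosomes, and form the midzone and midbody through which daughter cells separate, and their genes are mostly transcribed late in the cell cycle. Transport kinesins carry vesicles, mitochondria, lysosomes and RNA granules along microtubules, most of them outward and KIFC2 and KIFC3 toward the minus end, and run in dividing and resting cells alike. A last group works in cilia, at microtubule ends or in roles not settled. By these roles 14 genes were placed with the mitotic kinesins, 15 with the transport kinesins and 13 with the others. Genes that work late in the cell cycle often carry, close to their start site, a cell cycle homology region, the element that the DREAM and MuvB complexes read, and CCAAT boxes, which bind NF-Y.

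The promoters of 4 mitotic kinesins are shown because these genes had large changes and differ in those elements. KIFC1, KIF4A and KIF15 had the largest fold changes among called mitotic kinesins with a homology region, and KIF2C, which rose most in its class, held none of the letters searched and was chosen after its values were seen. The sequences are RefSeq's on the plus strand of GRCh38.p14, written 5′ to 3′, and run from base -120 to base -1 before the start site (in KIFC1 to base 10 after it). Capitals mark a cell cycle homology region (TTTGAA, or TTCAAA where it lies on the other strand), a CCAAT box (ATTGG on the other strand) and, in KIF15, an E2F site directly before the homology region.
KIFC1 (chr6:33391703-33391832): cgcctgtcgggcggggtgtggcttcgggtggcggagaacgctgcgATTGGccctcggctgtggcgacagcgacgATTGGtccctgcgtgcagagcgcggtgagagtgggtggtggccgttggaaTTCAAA
KIF4A (chrX:70289984-70290103): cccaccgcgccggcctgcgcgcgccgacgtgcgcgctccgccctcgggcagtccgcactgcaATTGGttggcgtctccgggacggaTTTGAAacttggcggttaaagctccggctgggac
KIF15 (chr3:44761674-44761793): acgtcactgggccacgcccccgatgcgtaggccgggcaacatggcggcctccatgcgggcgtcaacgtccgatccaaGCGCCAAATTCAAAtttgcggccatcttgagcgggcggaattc
KIF2C (chr1:44739717-44739836): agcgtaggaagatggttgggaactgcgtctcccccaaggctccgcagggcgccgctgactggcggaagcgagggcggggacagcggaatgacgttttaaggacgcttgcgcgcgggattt
KIFC1 held CCAAT boxes at -75 to -71 and -46 to -42 and a homology region at 5 to 10. KIF4A held a CCAAT box at -58 to -54 and a homology region at -34 to -29. KIF15 held an E2F site at -43 to -36 and a homology region at -35 to -30 that share no base.

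In SRRM4 KO cells the mitotic kinesins rose together, and the transport kinesins as a class did not. Of the 42 kinesins, 34 had enough counts to be tested (12 mitotic, 14 transport and 8 others) by the quasi-likelihood method of edgeR, with p-values adjusted after Benjamini and Hochberg over all 15341 tested genes. Calls needed an adjusted p below 0.05 together with a log2 fold change above 1 or below -1. On these terms 10 of the 12 tested mitotic kinesins were called higher in KO cells and 0 lower, where 5.45% of all tested genes were called higher and 7.14% lower. A test against the fold threshold itself (edgeR's glmTreat) called 5 of the 12, beside 360 higher and 577 lower of all tested genes. With the adjusted p alone all 12 tested mitotic kinesins were higher, where 20.7% of tested genes were higher and 20.9% lower. Each of the 12 also had every KO library above every control library, as 25.9% of all tested genes did, and a further 25.9% had every KO library below. Their median log2 fold change was 1.22, between 0.75 and 1.89, beside -0.01 over all tested genes. KIF2A, the depolymerase closest to KIF2C, was placed with the other kinesins and lies outside this range, at 0.30 and not called. Of the 14 tested transport kinesins, 1 was called higher and 0 lower, 2 were higher and 2 lower by the adjusted p alone, and 10 did not pass. Their log2 fold changes were positive in 7 and negative in 7, with a median of -0.04 and a range from -1.01 to 2.42. The medians of the classes lay 1.26 apart, a description with no test, since the genes of a class share libraries. In bulk RNA a larger share of dividing cells and more RNA of these genes per cell cannot be told apart. The study reported no significant difference in proliferation between control and KO cells by its MTS assay, a measurement made apart from these libraries.

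**Figure D1:**
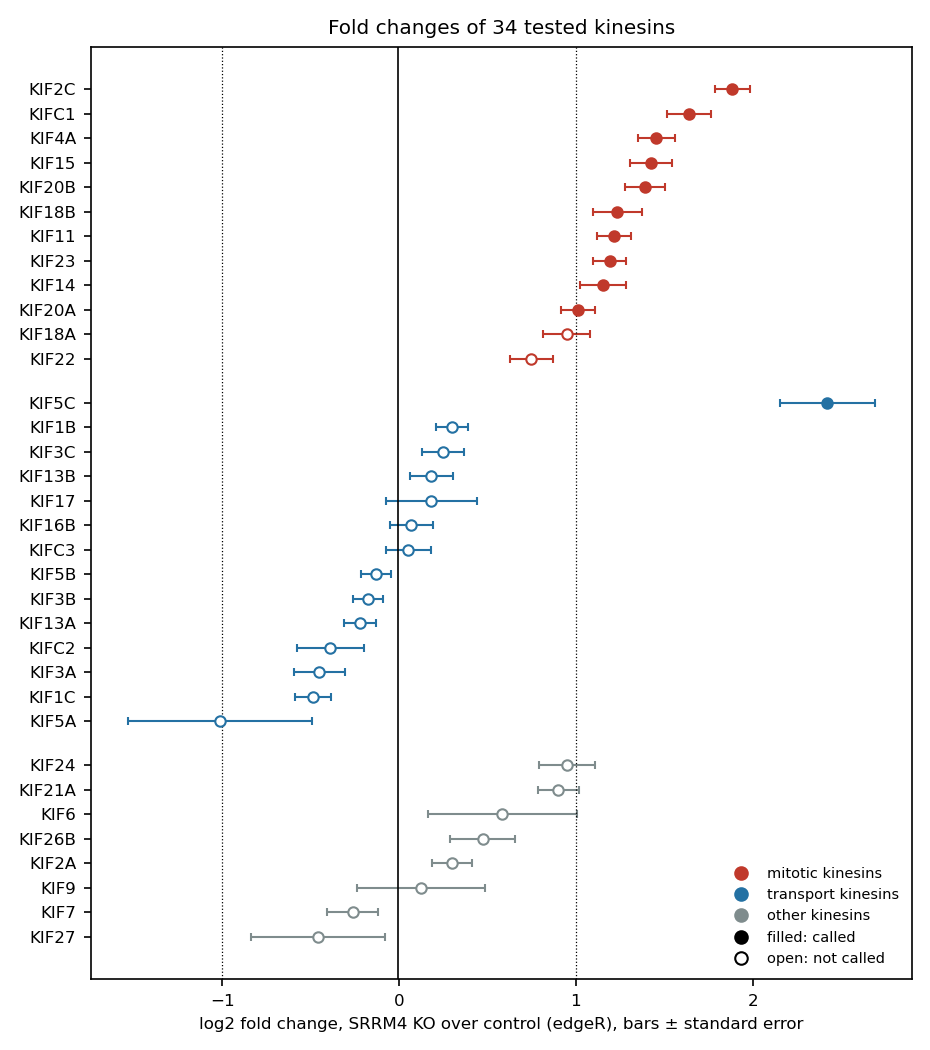
Log2 fold change of each of the 34 tested kinesins, SRRM4 KO over control, with its standard error, by class (filled points were called; the solid line is the median of all tested genes at -0.01 and the dotted lines are the thresholds at -1 and 1). The 12 mitotic kinesins lie between 0.75 and 1.89, and the transport kinesins lie on both sides of the solid line with KIF5C apart at 2.42.

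The largest rise among mitotic kinesins was in KIF2C, which encodes MCAK, a motor that does not walk but takes microtubules apart at their ends and frees wrongly attached kinetochores. KIF2C (ENSG00000142945, chromosome 1, 44739818 to 44767767) had 524, 616 and 555 counts in the control libraries and 2144, 2309 and 2108 in the KO libraries. All KO libraries were thus above 3 times any control library, and the mean went from 25.9 ± 2.37 to 95.6 ± 0.732 CPM (SD, n = 3). The log2 fold change was 1.89 (standard error, SE, of 0.098, adjusted p = 1.02e-09 by edgeR), a 3.70-fold rise. KIF18B, which meets KIF2C at the ends of astral microtubules, had 285, 399 and 326 counts in control and 874, 895 and 722 in KO cells, with no overlap. Its log2 fold change was 1.23 (SE 0.138, adjusted p = 4.0e-06 by edgeR). KIF2B, a relative of KIF2C that also takes spindle microtubules apart, had 0 counts in every library.

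The motors that set the length and poles of the spindle rose as well. KIFC1, the minus-end motor HSET that bundles microtubules and focuses spindle poles, had 438, 549 and 441 counts in control and 1691, 1657 and 1325 in KO cells. The groups were far apart, at 21.8 ± 3.18 and 68.0 ± 7.85 CPM (SD, n = 3), and the log2 fold change was 1.64 (SE 0.124, adjusted p = 6.22e-08 by edgeR). KIF11, the motor Eg5 that pushes the poles apart and works against KIFC1, had 1240, 1063 and 1062 counts in control and 2546, 2974 and 2673 in KO cells, a log2 fold change of 1.22 (SE 0.094). KIF15, which can take over from KIF11 in holding a spindle bipolar, had 361, 299 and 298 counts in control and 861, 977 and 857 in KO cells, a log2 fold change of 1.42 (SE 0.120). In both genes the control and KO libraries were far apart.

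Chromokinesins and motors of chromosome alignment showed a wider range. KIF4A, which binds chromosome arms and then the central spindle, had 646, 545 and 525 counts in control and 1592, 1750 and 1590 in KO cells, and the log2 fold change was 1.46 (SE 0.106, adjusted p = 4.19e-08 by edgeR). KIF22, the chromokinesin Kid, had the smallest change of the class, at 432, 545 and 547 counts in control and 941, 967 and 775 in KO cells. Its log2 fold change of 0.75 (SE 0.122, adjusted p = 1.55e-04 by edgeR) passed the adjusted p but not the fold threshold. KIF18A, which damps the swings of chromosomes on the metaphase plate, had 391, 331 and 311 counts in control and 674, 671 and 738 in KO cells, and its log2 fold change of 0.95 (SE 0.133) also stayed under the threshold. Both genes nevertheless had each KO library above each control library. KIF4B, a near-copy of KIF4A without introns, had 1, 0 and 5 counts in control and 2, 2 and 6 in KO cells and was not tested. Of the 50-base stretches of KIF4B, 14.0% are also in KIF4A, so that some of these few reads could belong to either.

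The motors of the midzone and of cytokinesis were all called higher. KIF23 (MKLP1), which forms centralspindlin with RACGAP1, had 1569, 1437 and 1332 counts in control and 3255, 3652 and 3471 in KO cells, a log2 fold change of 1.19 (SE 0.092). KIF20B, which acts late in cytokinesis, had 989, 767 and 740 counts in control and 2131, 2389 and 2334 in KO cells, a log2 fold change of 1.39 (SE 0.115). KIF14, which works with citron kinase at the midbody, had 682, 562 and 461 counts in control and 1262, 1501 and 1224 in KO cells, a log2 fold change of 1.15 (SE 0.132). In these genes control replicate 1 was the highest control library, and it was still far below the KO libraries. KIF20A (MKLP2), which brings the chromosomal passenger complex to the midzone, had 680, 726 and 775 counts in control and 1481, 1707 and 1420 in KO cells. Its log2 fold change of 1.01 (SE 0.095, adjusted p = 6.1e-07 by edgeR) lay at the threshold and was 0.97 without control replicate 1. In the same fit KIF18A reached 1.05, so 10 mitotic kinesins were called there too, but not the same 10.

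**Figure D2:**
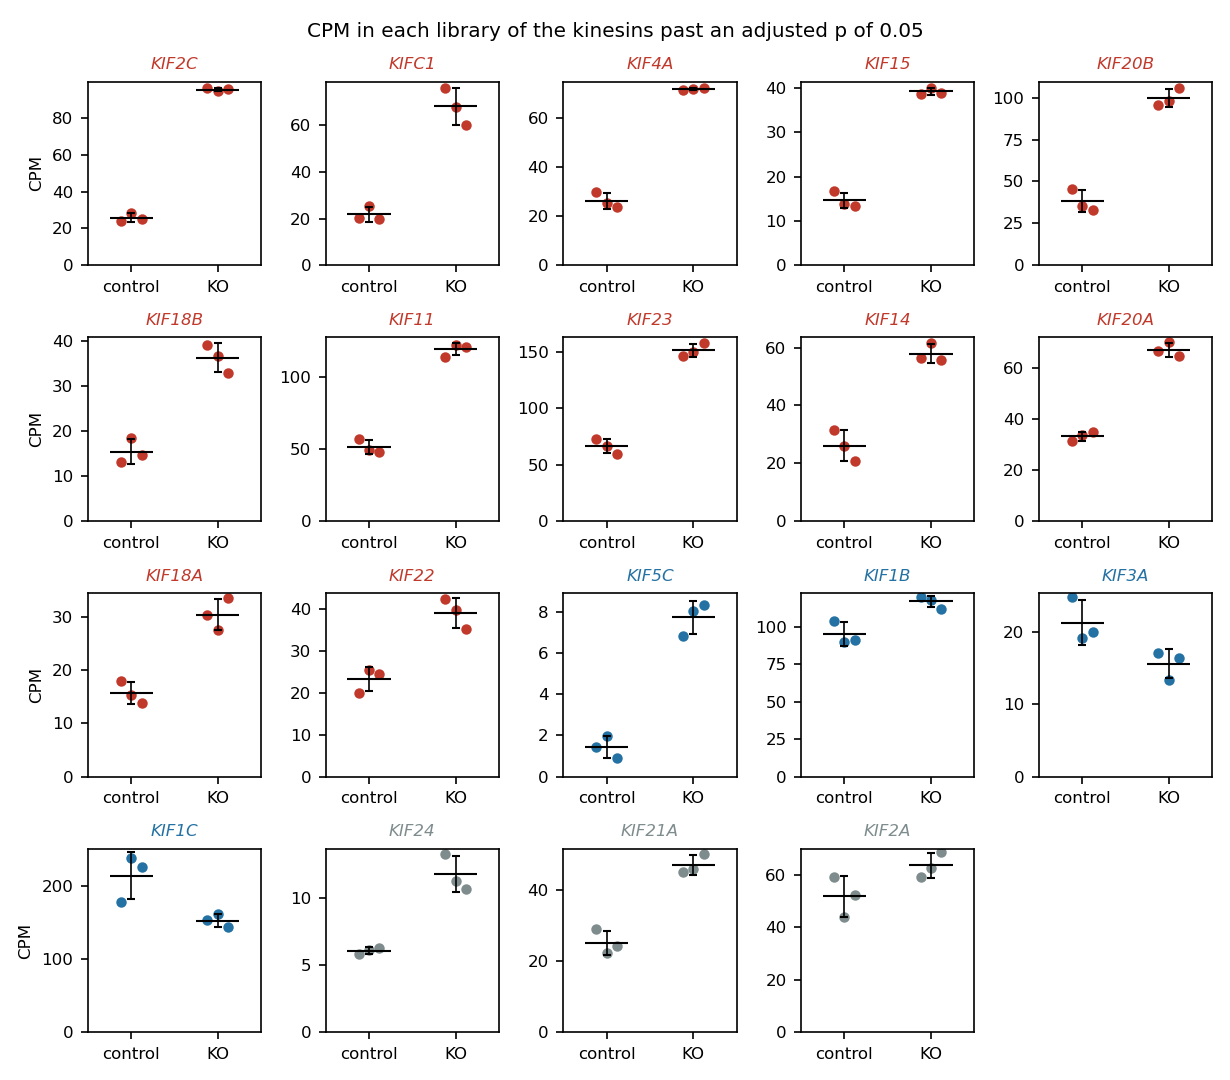
CPM in each library (points), with the mean and SD of each group of 3, for the 19 kinesins past an adjusted p of 0.05, each on its own linear axis from 0 (red, mitotic; blue, transport; grey, other). All 12 mitotic kinesins have their KO points above their control points, as have KIF5C, KIF1B, KIF24, KIF21A and, with almost no gap, KIF2A, while KIF1C and KIF3A have theirs below.

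Among the transport kinesins KIF5C alone was called. KIF5A, KIF5B and KIF5C are the heavy chains of kinesin-1, the first kinesin found, and KIF5B is present in most cells while KIF5A and KIF5C are typical of neurons. KIF5C (ENSG00000168280, chromosome 2, 148875250 to 149026759) had 31, 43 and 20 counts in the control libraries and 152, 196 and 183 in the KO libraries. The groups were far apart, at 1.44 ± 0.549 and 7.73 ± 0.796 CPM (SD, n = 3). The log2 fold change of 2.42 (SE 0.268, adjusted p = 3.41e-06 by edgeR), a 5.36-fold rise, was the largest of all 34 tested kinesins, and it was 2.42 without control replicate 1. KIF5B, the most abundant kinesin, had 9057, 7421 and 7965 counts in control and 7283, 8228 and 7838 in KO cells, which overlap, and its log2 fold change was -0.13 (SE 0.085, adjusted p = 0.234 by edgeR, and -0.04 without control replicate 1). KIF5A was low, at 34, 17 and 17 counts in control and 10, 10 and 15 in KO cells. Its log2 fold change of -1.01 had an SE of 0.521 and did not pass (adjusted p = 0.136 by edgeR), and it was -0.59 without control replicate 1.

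Set against KIF5B in the same library and per base of gene length, KIF5C stood at 0.218%, 0.370% and 0.160% in control and at 1.33%, 1.52% and 1.49% in KO cells, so KIF5C remained a small part of kinesin-1 RNA in both groups. These ratios, which no scaling of libraries can change, did not overlap and differed 6.15-fold, given as a description since KIF5C was taken for its rise. Of 8 neuron markers, 4 were tested, and 1 was called higher, where 5.45% of all tested genes were called higher and 7.14% lower. The called marker was NEFL, the light neurofilament chain, at 311, 317 and 398 counts in control and 950, 975 and 864 in KO cells (log2 fold change 1.38). TUBB3, MAP2 and SNAP25 were at -1.11, -0.21 and -0.55 and did not pass, STMN2 was at 0 counts in every library, and ELAVL4, RBFOX3 and SYP had at most 14 counts. The summed neuron marker level was 88.0 to 105 CPM in control and 107 to 109 CPM in KO cells. The part of these genes in the KIF5C result was not tested.

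The remaining transport kinesins moved little and in both directions. KIF1C, which carries integrins and dense-core vesicles, had 3868, 5143 and 5038 counts in control and 3400, 3947 and 3161 in KO cells. By CPM the groups did not overlap, and the log2 fold change was -0.49 (SE 0.103, adjusted p = 0.00139 by edgeR). KIF3A, a subunit of the heterotrimeric kinesin-2 that also builds cilia, had 537, 411 and 447 counts in control and 380, 324 and 360 in KO cells, a log2 fold change of -0.45 (SE 0.145, adjusted p = 0.0208 by edgeR) that lost its adjusted p without control replicate 1 (-0.33, adjusted p = 0.0594 by edgeR) and without KO replicate 2 (-0.36, adjusted p = 0.105). KIF1B, a carrier of mitochondria and synaptic vesicle precursors, had 2256, 1930 and 2038 counts in control and 2669, 2881 and 2474 in KO cells, a log2 fold change of 0.30 (SE 0.088, adjusted p = 0.0129 by edgeR). It did not pass in 4 of 6 fits that left out 1 library, those without control replicate 2 or 3 or KO replicate 1 or 2 (0.26 to 0.28, edgeR adjusted p = 0.0598 to 0.065). All 3 changes were smaller than that of any tested mitotic kinesin.

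KIF3B and KIF3C, the partners of KIF3A, were at -0.18 and 0.25 on the log2 scale, and neither passed (adjusted p = 0.104 and 0.107 by edgeR). With each chromosome's median subtracted both passed, KIF3B at -0.32 and KIF3C at 0.50 (adjusted p = 0.00667 and 0.0039 by edgeR). KIF13A, which moves endosomes, was at -0.22 (adjusted p = 0.0589 by edgeR), and at -0.28 without control replicate 2 or KO replicate 3, where it passed (adjusted p = 0.0439 and 0.045 by edgeR). It also passed with upper-quartile normalization, a minimum of 10 counts, protein-coding genes only and each chromosome centred (adjusted p = 0.0101 to 0.0375 by edgeR). KIF13B, KIF16B, KIF17 and KIFC3 lay between 0.05 and 0.18 with overlapping groups, and between -0.08 and 0.13 without control replicate 1. KIFC2, at -0.39, did not pass (adjusted p = 0.115) but did without control replicate 1 (-0.57, adjusted p = 0.00317) and with no filter on low counts (-0.39, adjusted p = 0.022, all by edgeR). KIF1A, a neuronal carrier of synaptic vesicle precursors, had 3, 0 and 1 counts in control and 0 in each KO library and was not tested.

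The kinesins outside both classes had no called member, and 3 of 8 tested were higher by the adjusted p alone, where 5.45% of all tested genes were called higher, 7.14% lower and 20.7% higher by the adjusted p. KIF24, which shortens centriolar microtubules and caps the mother centriole, had 126, 132 and 141 counts in control and 296, 275 and 236 in KO cells, a log2 fold change of 0.95 (SE 0.160, adjusted p = 2.03e-04 by edgeR). KIF21A, which restrains microtubule growth at the cell cortex, had 626, 482 and 538 counts in control and 1000, 1114 and 1102 in KO cells, a log2 fold change of 0.90 (SE 0.116, adjusted p = 1.63e-05 by edgeR), and 1.01 without control replicate 1. In both the KO libraries lay well above the control libraries, just short of the fold threshold. KIF24 passed it without KO replicate 3 (1.00, adjusted p = 5.39e-04 by edgeR) and with each chromosome's median subtracted (1.19). KIF2A, the depolymerase closest to KIF2C, had 1284, 946 and 1164 counts in control and 1320, 1530 and 1511 in KO cells, and its log2 fold change of 0.30 had an adjusted p of 0.0468 by edgeR. KIF2A was at 0.40 without control replicate 1 (adjusted p = 0.00134) and did not pass without any of the other 5 libraries (0.19 to 0.34, adjusted p = 0.0615 to 0.222, all by edgeR), nor with upper-quartile normalization, a minimum of 10 counts or protein-coding genes only.

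Per base and within each library, KIF2C stood at 53.4%, 85.3% and 62.4% of KIF2A in control and at 213%, 198% and 183% in KO cells, so that the order of these related motors was turned round (3.00-fold, given as a description since KIF2C was taken for its rise). KIF26B (0.47, adjusted p = 0.0515 by edgeR), KIF6 (0.58, and 0.36 without control replicate 1), KIF9 (0.12), KIF7 (-0.26) and KIF27 (-0.46) did not pass, though with 1 library left out KIF7 did without control replicate 1 (-0.38, adjusted p = 0.0234), KIF26B without KO replicate 2 (0.57, adjusted p = 0.0416) and KIF27 without KO replicate 1 (-1.10, adjusted p = 0.0293, all by edgeR), which was then called lower. KIF12, KIF19, KIF25 and KIF26A had 0 counts in all 6 libraries, and KIF21B had 1 count in 1 KO library.

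Scaled by gene length, the order of the kinesins changed between the groups. KIF5B ranked 1 of 42 in both, at 63.5 ± 6.68 CPM per kilobase in control and 57.9 ± 2.52 in KO cells (SD, n = 3). In control the next ranks were held by the transport kinesins KIF1C (24.97 ± 3.69), KIF3B (16.1 ± 0.521) and KIF13A (13.1 ± 1.14), followed by KIF2A (10.8 ± 1.61) and the mitotic KIF11 (10.6 ± 1.05), and the last 2 did not differ beyond their spread. In KO cells ranks 2 to 5 were held by mitotic kinesins, KIF2C (26.2 ± 0.201), KIF11 (24.5 ± 0.894), KIF23 (23.0 ± 0.901) and KIFC1 (20.3 ± 2.34), and KIF1C came at rank 6 (17.8 ± 1.07). KIF2C had moved from rank 9 to rank 2 and KIFC1 from rank 11 to rank 5. KIF5C, in spite of its large fold change, went only from rank 33 to rank 28, at 0.156 ± 0.060 and 0.839 ± 0.086 CPM per kilobase.

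Summed over the class, mitotic kinesins took 380, 364 and 331 CPM in the control libraries and 873, 881 and 874 CPM in the KO libraries. The transport kinesins took 1139, 1117 and 1114 CPM in control and 1017, 1045 and 1016 CPM in KO cells, and the groups did not overlap although no transport kinesin was called lower. As shares of all kinesin RNA per kilobase, mitotic kinesins held 30.4%, 31.0% and 28.8% in control and 53.8%, 53.1% and 52.9% in KO cells. The transport share went from 61.3%, 61.6% and 62.9% to 39.2%, 40.0% and 39.5%. The other kinesins held 7.40% to 8.35% in control and 6.94% to 7.57% in KO cells. Both main shares were thus nearly constant within a group, and control replicate 1 did not stand apart in them. Which class was larger in KO cells depended on the length scaling. As shares of kinesin CPM without it, transport kinesins held 49.6% to 50.4% in the KO libraries and mitotic kinesins 42.5% to 42.9%. The unscaled mitotic share was 21.2% to 23.2% in the control libraries.

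**Figure D3:**
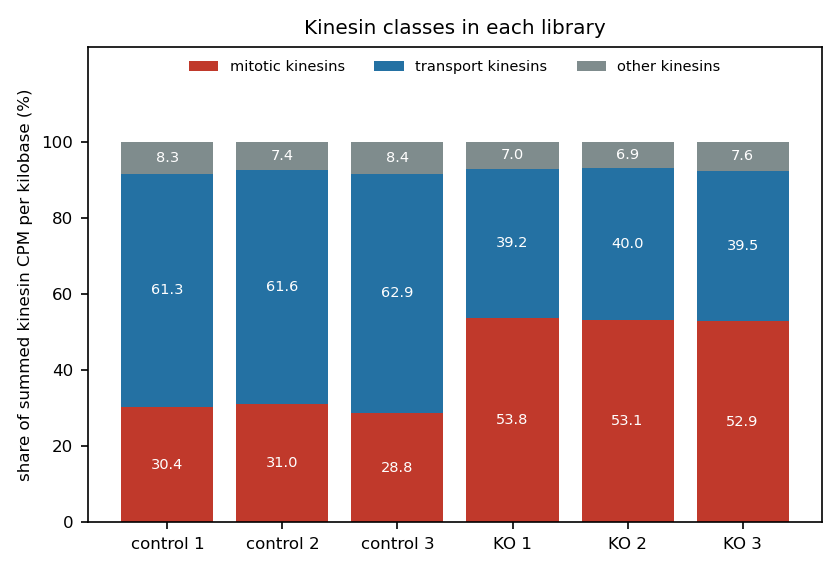
Share of the summed kinesin CPM per kilobase held by each class in each of the 6 libraries, in percent. The mitotic share is 28.8% to 31.0% in the control libraries and 52.9% to 53.8% in the KO libraries.

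The proteins that work with the mitotic motors moved with them. Of 20 partner genes, listed by hand, 20 were tested, 14 were called higher and 0 lower, 18 were higher by the adjusted p (5.45% and 20.7% of all tested genes), and the median log2 fold change was 1.17. CENPE, called higher at 1.39, is itself a kinesin that the symbol rule does not take. The largest changes were in members of the chromosomal passenger complex and in Aurora A. BIRC5, which encodes survivin, went from 765, 839 and 884 counts to 3325, 3865 and 3050 (1.97 on the log2 scale), AURKB from 253, 340 and 353 to 1203, 1229 and 1122 (1.84), and AURKA from 545, 538 and 578 to 1927, 2018 and 1821 (1.73). NUMA1, which anchors dynein at the poles and is made throughout the cell cycle, was at 0.14 and did not pass. PRC1, the crosslinker that recruits KIF4A, had only 11 to 30 counts in any library and did not pass (0.71), and 57.6% of its exon bases are shared with another gene on the same strand, AC068831.7, so its count is uncertain. NUSAP1, also on this list, shares 62.2% of its exon bases with AC087721.2 on the same strand, which had 0 counts, so its count is uncertain too.

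Markers of the cell cycle rose as well. Of 11 genes of G2 and M phase, 10 were called higher (5.45% of all tested genes) and 0 lower, with a median log2 fold change of 1.33, led by UBE2C (1.62), CDC20 (1.54) and BUB1B (1.46). MYBL2, a regulator of such genes, was the exception at -0.28 and did not pass. The summed level of this list was 593 to 673 CPM in control and 1484 to 1528 CPM in KO cells. Mitotic kinesins stood to it as 0.564, 0.603 and 0.557 in control and as 0.573, 0.593 and 0.572 in KO cells, with overlapping groups. Of 10 S phase genes, 9 were higher by the adjusted p (20.7% of all tested genes) and 3 were called, CCNE2 (1.43), PCNA (1.19) and RRM2 (1.07), with a median of 0.85 and a summed level of 922 to 997 CPM in control and 1648 to 1685 CPM in KO cells. The part of a changed cell cycle distribution in the kinesin values was not tested.

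The partners of the transport motors changed about as often as genes at large. Of 20 genes for light chains, adaptors and cargo linkers, 18 were tested, 0 were called higher and 1 lower (5.45% and 7.14% of all tested genes), 3 were higher and 4 lower by the adjusted p, near the 20.7% and 20.9% of all tested genes, and the median log2 fold change was -0.06. KLC2, a light chain of kinesin-1, was at 0.52, KIFBP, which holds KIF1 motors in check, at 0.44, and STARD9, listed here although it is itself a kinesin by sequence with a mitotic role, at 0.78. MAPK8IP2, a scaffold that links cargo to light chains, was called lower at -1.67 from 9, 35 and 32 counts to 6, 15 and 4, which overlap. MAPK8IP3 was at -0.46 and TRAK2, a mitochondrial adaptor, at -0.41. No member of this list was at 0 counts in every library, though KLC3 had 2 counts in 1 library only.

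The 3 short motifs named above were counted on both strands in the RefSeq windows from 250 bases before to 50 bases after the start site. The cell cycle homology region, read as TTTGAA or TTCGAA, was in a window of 10 of the 12 tested mitotic kinesins, 1 of 10 tested transport kinesins (KIF5B) and 1 of 6 tested others (KIF24), beside 15.8% of 10774 tested genes and 19.5% of all 27305 genes with a window. In the tested mitotic kinesins the matches nearest the start lay from -55 to -50 in KIF23 to 25 to 30 in KIF20B (which has another at 31 to 36), whereas that of KIF5B lay at -140 to -135. CCAAT was in 10 of the 12 tested mitotic kinesins, 4 of 10 transport kinesins and 2 of 6 others, beside 43.1% of tested genes. Among tested mitotic kinesins KIF2C held none of the motifs, KIF20A held CCAAT boxes only and KIF15 was the only member with an E2F site (TTTCGCGC or TTTGGCGC), a match that 2.41% of tested genes have. KIF24, with a homology region at 2 to 7 and 3 CCAAT boxes before it, was the only tested kinesin of the last group with both elements. No window was used for KIF5A, KIF13B, KIFC2, KIFC3, KIF19, KIF21B, KIF26B and KIF27. A match is a description of letters and not a binding site.

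**Figure D4:**
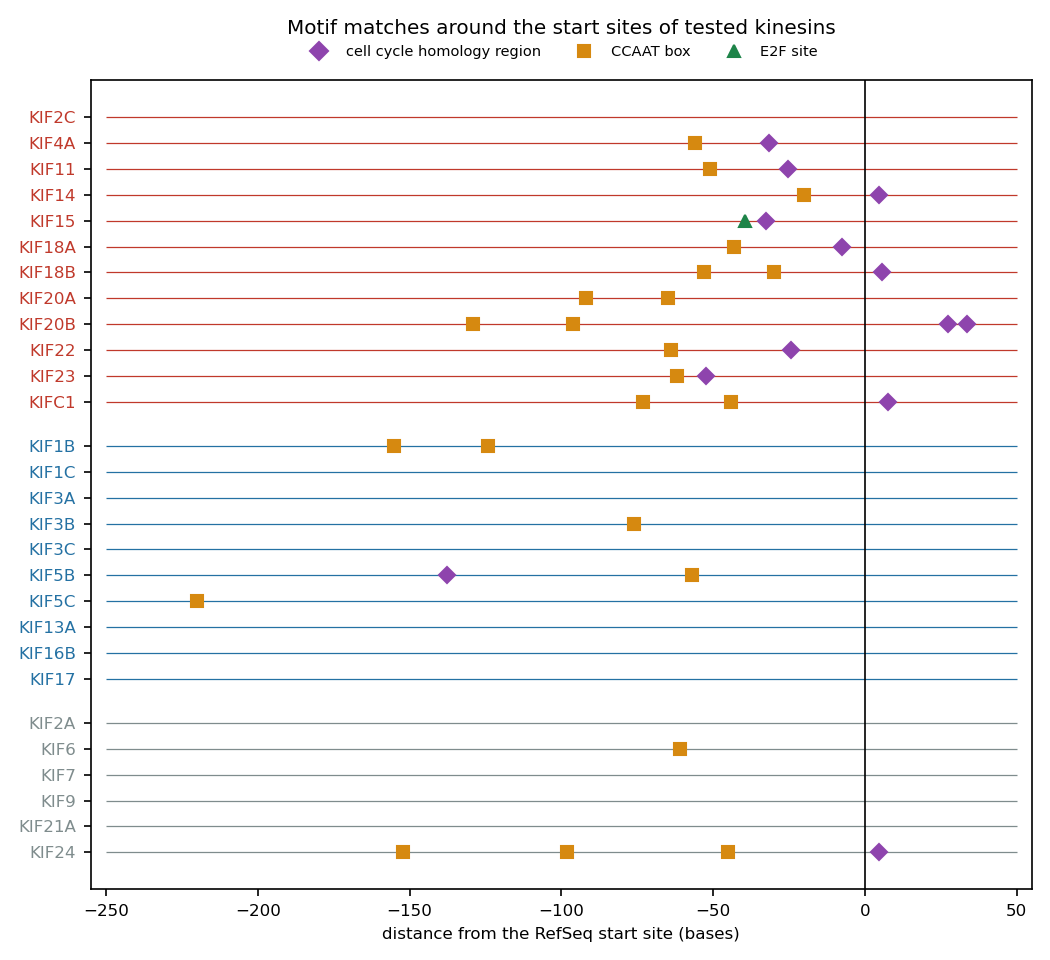
Motif matches in the window from 250 bases before to 50 bases after the RefSeq start site of the 28 tested kinesins with a window, 1 line a gene, coloured by class (for genes with several windows the first is drawn). In the mitotic class the homology regions (diamonds) lie between -55 and 36, mostly with a CCAAT box (squares) before them.

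The rise of the mitotic kinesins was not held by 1 part of the genome. The 12 tested genes lie on 10 chromosomes, whose median log2 fold changes over all their tested genes ran from -0.28 to 0.32. After each gene's chromosome median was subtracted, 11 of the 12 were called higher, beside 776 genes higher and 1037 lower of all 15341 tested. KIF22 on chromosome 16 was among the 11, at 1.03, and KIF18A was at 0.84. KIF4A, on chromosome X, was then at 1.14 in place of 1.46. The libraries carry no strand, and 7 of these 12 genes share exon bases with a neighbour. KIF22 shares 13.0% with AC009133.4, which had 0 counts, KIFC1 12.7% with RPL12P1, a pseudogene with at most 1 count, and KIF2C 4.80% with AL592166.1, which had at most 7. Among neighbours with more counts, KIF23 shares 3.51% with AC027237.3 (43 to 145 counts), KIF18A 1.31% with METTL15, KIF20A 3.34% with BRD8 and 1.72% with CDC23, and KIF4A 1.70% with PDZD11. Larger shares with counted neighbours occur in the other kinesins, where KIF9 shares 14.9% with KIF9-AS1, KIF7 11.8% with TICRR and KIF2A 8.97% with IPO11, so that their values are less certain.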

How the data were processed

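mRNA of 3 control and 3 SRRM4 KO libraries of UE7T-9 cells was sequenced without strand by the authors' provider (NEBNext Ultra kit, Illumina NovaSeq). Per the labels, HISAT2 2.0.5, featureCounts 1.5.0-p3 and DESeq2 were used. The authors deposited raw counts of reads per gene, not normalized. The genome build is not given in the sources used here, but all 42 kinesins have the coordinates of GENCODE release 29 (GRCh38). How reads of overlapping genes were counted is not given in the sources used here. The table also names each gene's length, used for levels per kilobase.

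Samples were grouped by title and genotype. The deposited counts were tested with edgeR 4.0.16 in R 4.3.3 (TMM, filterByExpr, prior count 0.125, quasi-likelihood test, Benjamini-Hochberg over 15341 genes), after a check on simulated data. Standard errors were worked out as the log2 value divided by the root of F, and CPM uses TMM-scaled library sizes. The members (by symbol) and, by hand, the classes and the partner and marker lists were chosen with earlier results of these data known. Every kinesin is named, with values per library for those past an adjusted p of 0.05, and of other lists up to 3 genes a direction by fold change and those at 0 counts, with ENG, NUMA1, PRC1, MYBL2, KLC3 and untested or unpassed markers added after their values were seen. Alternatives were DESeq2 size factors and DESeq2 1.42.0, upper-quartile normalization, other filters, other thresholds, leaving out each library, a block for the replicate number, protein-coding genes only, chromosome centring and other classes. Ratios within a library were added after seeing the data. Promoters are RefSeq's (GRCh38.p14), matched by symbol, and 34 of 42 kinesins had a window. Protein sequences were not used here. A listed marker that the rule takes is not reported here.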

Additional observations from a re-analysis of the deposited data

How the results depend on the processing

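In the mitotic class, 9 to 11 of the 12 tested members were called higher under each alternative that kept both thresholds and gave such a count, except glmTreat. Over all genes the same alternatives, glmTreat aside, called 624 to 916 higher and 765 to 1243 lower. The test against the fold threshold itself (glmTreat) called 5 of the 12, beside 360 higher and 577 lower of all genes. The adjusted p alone, without the fold threshold, gave all 12 higher, beside 3171 genes higher and 3213 lower. It also gave 2 transport kinesins higher and 2 lower, and 3 other kinesins higher. The transport median was near 0 and moved to -0.13 with no filter, -0.13 with DESeq2's test, -0.14 with each chromosome centred, and 0.053, a change of sign, with KIF21A and KIF21B counted as transport and KIF2A as mitotic kinesins, where the classes differed by 1.16. KIF2A, at 0.30 and not called, was then the lowest of the tested mitotic class. The cause of these shifts was not tested. Each chromosome centred gave 1 other kinesin higher, KIF24. With 1 library left out at a time, the transport median ran from -0.079 to -0.055, other kinesins called higher from 0 to 1, other kinesins called lower from 0 to 1, and the difference between classes from 1.23 to 1.36. Among single genes, KIFC3 ran from -0.076 (without control replicate 1) to 0.15 with 1 library left out, and was also below 0 without KO replicate 1 or 2, KIF9 ran from -0.058 (without KO replicate 1) to 0.32 and was also below 0 without control replicate 1, and KIF16B turned to -0.076 with each chromosome centred, and none of these was called. KIF20A fell under the fold threshold with upper-quartile normalization (0.98), a minimum of 10 counts (0.99), protein-coding genes only (1.00) and without control replicate 1 or KO replicate 2 (0.97 each), and KIF27 was called lower without KO replicate 1 (-1.10). The same replicate numbers did not pair the samples (correlations of deviations -0.05, 0.08 and -0.05 for numbers 1 to 3), and the replicate block called 842 and 1093 genes and 10 mitotic kinesins. At 0.123 to 0.139 CPM as the limit of 3 counts, the 5 kinesins at 0 counts were not detectable at this depth.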

Other observations

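Of 20 genes of cytoplasmic dynein, the minus-end motor that opposes most kinesins, dynactin and their regulators, 0 were called, 3 were higher and 5 lower by an adjusted p under 0.05 (edgeR's quasi-likelihood test), 12 did not pass, shares near the 20.7% higher and 20.9% lower of all tested genes, and the median log2 fold change was -0.04. DYNC1H1, the dynein heavy chain, had 17565, 14717 and 13978 counts in control and 23903, 22699 and 20443 in KO cells (log2 fold change 0.47, adjusted p = 7.86e-04 by edgeR), and each KO library lay above each control library. DYNLL2, a light chain, was at 0.59 and DYNC1LI1, a light intermediate chain, at 0.48. DYNC1LI2, the other light intermediate chain, had 4373, 4246 and 4351 counts in control and 3039, 3304 and 2963 in KO cells (-0.55, adjusted p = 3.44e-05 by edgeR), so the RNAs of these light intermediate chains moved in opposite directions. Of dynactin, DCTN5 was at -0.53 and DCTN1, which binds the microtubule, at -0.45.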
